A study of Mus musculus with 24 samples.

Results

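Ucp1, Cidea, Cox7a1, Cox8b, Elovl3, Otop1, Fgf21, Kcnk3 and Cpt1b, 9 genes that mark heat production in brown and brite fat cells, were followed through a knockdown of the long noncoding RNA Ctcflos. They were chosen by symbol. Of 52089 gene symbols and 168326 transcript entries in the expression table, these 9 symbols held 24 entries. Each gene was read from its only RefSeq messenger RNA entry, whether or not another entry had a higher mean. All 9 could be tested in every comparison. The cells were primary preadipocytes from the stromal vascular fraction of inguinal white fat of 129SvEv mice, as the labels call them (substrain 129S6 in the methods). Every group, controls included, was kept in induction medium for 2 days and in differentiation medium for 1 day, with rosiglitazone, an activator of the adipocyte receptor PPARγ that turns white fat precursors into brite cells, and was then reverse transfected at 50 nM with LNA gapmers. An LNA gapmer is a short antisense oligonucleotide that recruits RNase H to its target RNA. KD cells received gapmers against Ctcflos and NC cells a nontargeting gapmer, and RNA was taken 24 h or 72 h after transfection. This gave 4 groups (NC 24 h, NC 72 h, KD 24 h, KD 72 h) of 6 libraries. The replicates are described as biological in the publication. The labels name neither the gapmer given to each KD library nor the culture or animal behind it, so p-values measure the spread between these samples, whatever its source.

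Brown and brite adipocytes burn fatty acids in their mitochondria and release the energy as heat when Ucp1 lets protons flow back across the inner membrane. The other 8 genes surround this step. Cpt1b gates the entry of fatty acids into mitochondria, and Elovl3 lengthens fatty acids. Cox7a1 and Cox8b are subunits of the last complex of the respiratory chain, and Cidea sits on lipid droplets. Otop1 and Kcnk3 are membrane channels, and Fgf21 is a secreted hormone. Cox7a1, Cox8b and Cpt1b are also used by skeletal muscle.

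Promoter windows from 250 bases before to 50 bases after the transcription start were taken from RefSeq for GRCm38.p6, because 6 of the 9 genes fell together at both times (described after the sequences). Such a window was at hand for 5 genes. Ucp1, Cox7a1 and Otop1 belong to those 6, while Cox8b and Fgf21 do not, so the windows cover those 6 only in part. They are printed 5′ to 3′ on the strand of the gene, with every match to any of 6 searched motifs in capitals.
Ucp1, chr8:83290098-83290397, plus strand: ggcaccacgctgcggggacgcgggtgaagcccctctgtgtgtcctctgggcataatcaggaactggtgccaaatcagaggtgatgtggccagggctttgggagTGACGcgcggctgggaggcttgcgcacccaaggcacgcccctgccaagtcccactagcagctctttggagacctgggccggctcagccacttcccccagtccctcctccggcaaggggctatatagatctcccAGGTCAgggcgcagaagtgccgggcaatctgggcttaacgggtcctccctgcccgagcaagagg
Cox7a1, chr7:30183921-30184220, plus strand: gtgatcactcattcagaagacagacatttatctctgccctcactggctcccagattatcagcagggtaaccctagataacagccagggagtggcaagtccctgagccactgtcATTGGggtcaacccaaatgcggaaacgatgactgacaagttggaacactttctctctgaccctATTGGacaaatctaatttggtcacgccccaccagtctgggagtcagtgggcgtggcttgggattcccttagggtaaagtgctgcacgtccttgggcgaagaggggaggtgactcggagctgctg
Cox8b, chr7:140900397-140900696, minus strand: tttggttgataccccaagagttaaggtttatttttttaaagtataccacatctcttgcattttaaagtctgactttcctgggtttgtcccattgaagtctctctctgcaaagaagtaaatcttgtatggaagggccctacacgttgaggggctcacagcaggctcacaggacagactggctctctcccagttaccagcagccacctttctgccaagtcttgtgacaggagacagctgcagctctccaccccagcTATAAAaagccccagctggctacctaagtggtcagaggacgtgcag
Fgf21, chr7:45615441-45615740, minus strand: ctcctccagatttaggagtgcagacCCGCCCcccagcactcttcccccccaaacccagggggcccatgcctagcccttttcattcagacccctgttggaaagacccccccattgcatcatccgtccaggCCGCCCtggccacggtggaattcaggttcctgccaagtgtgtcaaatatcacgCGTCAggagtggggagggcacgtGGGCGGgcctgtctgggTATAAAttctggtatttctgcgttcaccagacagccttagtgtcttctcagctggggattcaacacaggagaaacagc
Otop1, chr5:38277154-38277453, plus strand: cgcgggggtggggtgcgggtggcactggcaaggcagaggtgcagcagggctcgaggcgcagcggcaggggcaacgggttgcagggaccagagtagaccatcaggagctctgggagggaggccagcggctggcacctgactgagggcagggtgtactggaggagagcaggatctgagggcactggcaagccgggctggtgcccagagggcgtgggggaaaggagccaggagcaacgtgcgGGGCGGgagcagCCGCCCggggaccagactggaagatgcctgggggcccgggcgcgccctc
The windows of Cidea, Elovl3, Kcnk3 and Cpt1b are not shown.

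Motifs were searched on both strands. Ucp1 held the core letters bound by nuclear receptors, AGGTCA, at -14, a match found in 16.3% of all 32851 RefSeq windows of that length. It also held the core of the cyclic AMP response element, TGACG, at -147, which 20.8% of the windows contain. Fgf21 had that core once as well, at -68 on the opposite strand, beside the TATA box letters, TATAAA, at -28 (13.6% of windows). In Cox8b the TATA letters lay at 5, inside the transcript. Cox7a1 held 2 copies of the CCAAT box on the opposite strand, at -137 and -74 (37.4% of windows). The GC box, GGGCGG, came in 3 copies in Fgf21 and 2 in Otop1, and in 35.7% of all windows. The full cyclic AMP element, TGACGTCA, which contains the core, was in none of the 5 and in 1.79% of all windows. No motif of the 6 was thus common to the 5 windows, and these matches describe letters, not bound sites.

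The libraries held 1391827 to 5423834 mapped reads, at a median of 3945859, and KD 24 h replicate 6 was the shallowest. These numbers were inferred from the RPKM values, and those of NC 72 h replicate 6 were halved (see the processing). NC 72 h replicates 2 and 3 differed by less than the sampling noise. They entered every test as 1 averaged sample, which left n = 5 for NC 72 h. In deposited RPKM, reads divided by transcript length and by all mapped reads, the RefSeq Ctcflos transcript was low. It ran from 0.178 to 1.38 in NC 24 h and from 0.0 to 0.62 in KD 24 h, which overlapped (25.5% of the control, two-sided exact permutation p = 0.0455). The groups lay apart at 72 h, at 0.886 to 1.75 in NC and 0.0 to 0.517 in KD (18.8%, exact permutation p = 0.00433). Such levels rest on few reads, as 3 reads were worth 1.08 RPKM at 2000 bases in the shallowest library. The adipocyte label fitted the levels, with Fabp4 between 31500 and 46900 scaled RPKM in the NC samples. Of 8 muscle markers, Ckm, Myh1 and Myog were each at 0 in 21 of 23 samples, Myh4 in 22, Tnnt3 in 17 and Mb in 16. Mylpf was at 0 in only 2 samples and Acta1 in none, with Acta1 at up to 34.4 scaled RPKM. All 8 summed to 1.32 to 38.7 scaled RPKM. Markers of preadipocytes and fibroblasts summed to 679 to 1810, of which none of those tested was called at 24 h and 1 was lower and 2 higher in KD at 72 h. The 5 macrophage markers with an entry summed to 2.85 to 31.5, from Csf1r, above 0 in every sample, to Ptprc, at 0 in 16. Of 3 that could be tested, Csf1r was higher in KD at 24 h (1.22, adjusted p = 0.00607) and at 72 h (1.24, adjusted p = 0.00308), and Lyz2 was lower at 72 h (-3.68, adjusted p = 0.000649). Lyz2 had only 1 to 16 reads in KD 72 h, against 14 to 124 in NC 72 h. The 6 endothelial markers summed to 0.193 to 2.91, with too few reads to test, from Pecam1 and Cdh5, each at 0 in 1 sample, to Tie1, at 0 in 19. The part of these cells in the results was not tested. Deviations from the group means, computed without any listed gene, parted 16 libraries, the larger cluster, from 8, the smaller cluster, to which each group gave 2 (KD 24 h replicates 3 and 4, NC 24 h replicates 5 and 6, KD 72 h replicates 5 and 6, NC 72 h replicates 4 and 5). What sets the clusters apart is not given by the labels.

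To ask how the thermogenic genes respond to the loss of Ctcflos, KD was compared with NC at each time. At 24 h, 7 of the 9 genes were lower in KD, and Cox8b and Fgf21 did not pass the test. A call here means an adjusted p under 0.05 in limma after Benjamini-Hochberg correction over all entries tested. In that comparison 22.7% of all 52001 entries were called, 11.6% as lower. The log2 fold change was below 0 for all 9 genes, with a median of -0.76, against -0.01 for all entries. KD and NC did not overlap for 2 genes, Kcnk3 and Cpt1b, whereas 6.75% of all entries had every KD sample below every NC sample. At 72 h again 7 genes were lower in KD, now with Cox8b and without Kcnk3, while Fgf21 remained uncalled. In this comparison 22.5% of all 54134 entries were called, 12.1% as lower. The median of the 9 genes was -1.47, against 0.01 for all entries, and 6 genes lay lower without overlap, against 7.66% of all entries. Ucp1, Cidea, Cox7a1, Elovl3, Otop1 and Cpt1b were called lower at both times. No gene was called higher in KD at either time, against 11.1% of all entries at 24 h and 10.4% at 72 h.

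**Figure D1:**
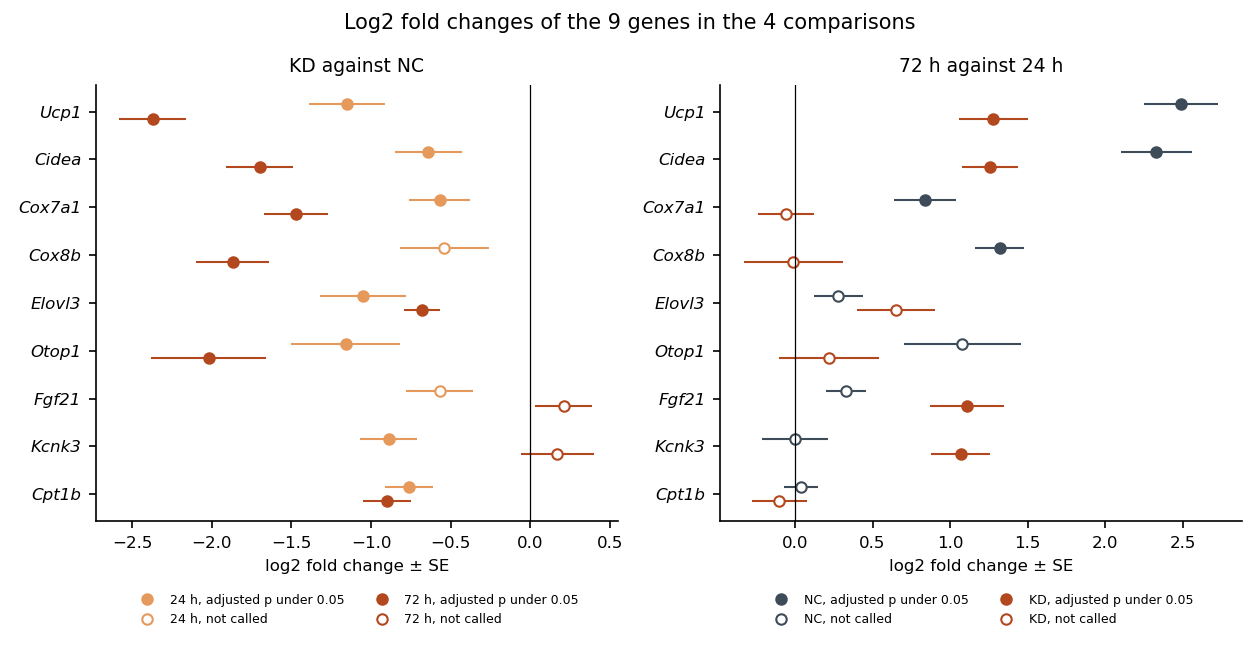
Log2 fold changes of the 9 genes with their SE, for KD against NC at 24 h and 72 h (left) and for 72 h against 24 h in NC and in KD (right). Filled points have an adjusted p under 0.05. The changes at 24 h lie between -1.16 and -0.54, those at 72 h between -2.37 and 0.21.

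Fold changes were taken after scaling, so they are relative to the bulk of transcripts. On the deposited scale the median of all entries moved to 0.05 at 24 h and to 0.25 at 72 h. General adipocyte markers moved with the 9 genes. Of 8 such markers, 4 were lower in KD at 24 h (median -0.40) and 5 at 72 h (median -0.52), and none was higher. Their summed level ran from 35500 to 48700 scaled RPKM in KD 24 h, 48800 to 51400 in NC 24 h, 24500 to 33800 in KD 72 h and 35400 to 46600 in NC 72 h. Most of each sum was Fabp4, with means of 40000, 45300, 25200 and 37700 in the same order. Fabp4 was not called at 24 h (-0.18, adjusted p = 0.24) and was lower at 72 h (-0.58, adjusted p = 0.00527). Scaled to these 8 markers, 2 of the 9 genes stayed called lower at 24 h (Ucp1 and Cpt1b). There 4.6% of all entries were lower and 30.3% higher, with a median of 0.36. At 72 h, 6 genes stayed lower on that scale, and Fgf21 and Kcnk3 were called higher. Here 2.95% of all entries were lower and 43.5% higher, with a median of 0.53. The part of adipocyte content in the falls was not tested beyond this scaling, and in bulk samples fewer brite cells and less RNA per cell cannot be told apart.

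The course of the 9 genes between 24 h and 72 h was then read within each treatment. In NC, 4 of the 9 rose (Ucp1, Cidea, Cox8b and Cox7a1), where 9.15% of all entries were called, 4.64% as higher. Ucp1, Cidea and Cox8b did so without overlap of the samples, which 3.38% of all entries showed. In KD also 4 rose, namely Ucp1, Cidea, Fgf21 and Kcnk3, where 9.86% of all entries were called, 5.03% as higher, and all 4 did so without overlap (3.62% of all entries). Ucp1 and Cidea thus rose in both treatments, Cox7a1 and Cox8b were called in NC and not in KD, and Fgf21 and Kcnk3 were called in KD and not in NC. No gene fell in either, against 4.51% of all entries in NC and 4.83% in KD. These comparisons share their samples with those of KD against NC, so they are not independent of them. An interaction term asked whether KD and NC were further apart at one time than at the other. In limma it called 0 of the 9 genes, against 0.202% of all 59262 entries (0.0742% lower, 0.128% higher). An unadjusted p under 0.05 was reached by 6 genes, and by 11.8% of all entries. The term was below 0 for Ucp1 (-1.20 ± 0.35 SE, adjusted p = 0.151), Cidea, Cox7a1 and Cox8b, and above 0 for Kcnk3 (1.08 ± 0.30, adjusted p = 0.134) and Fgf21 (0.80 ± 0.30, adjusted p = 0.287).

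**Figure D2:**
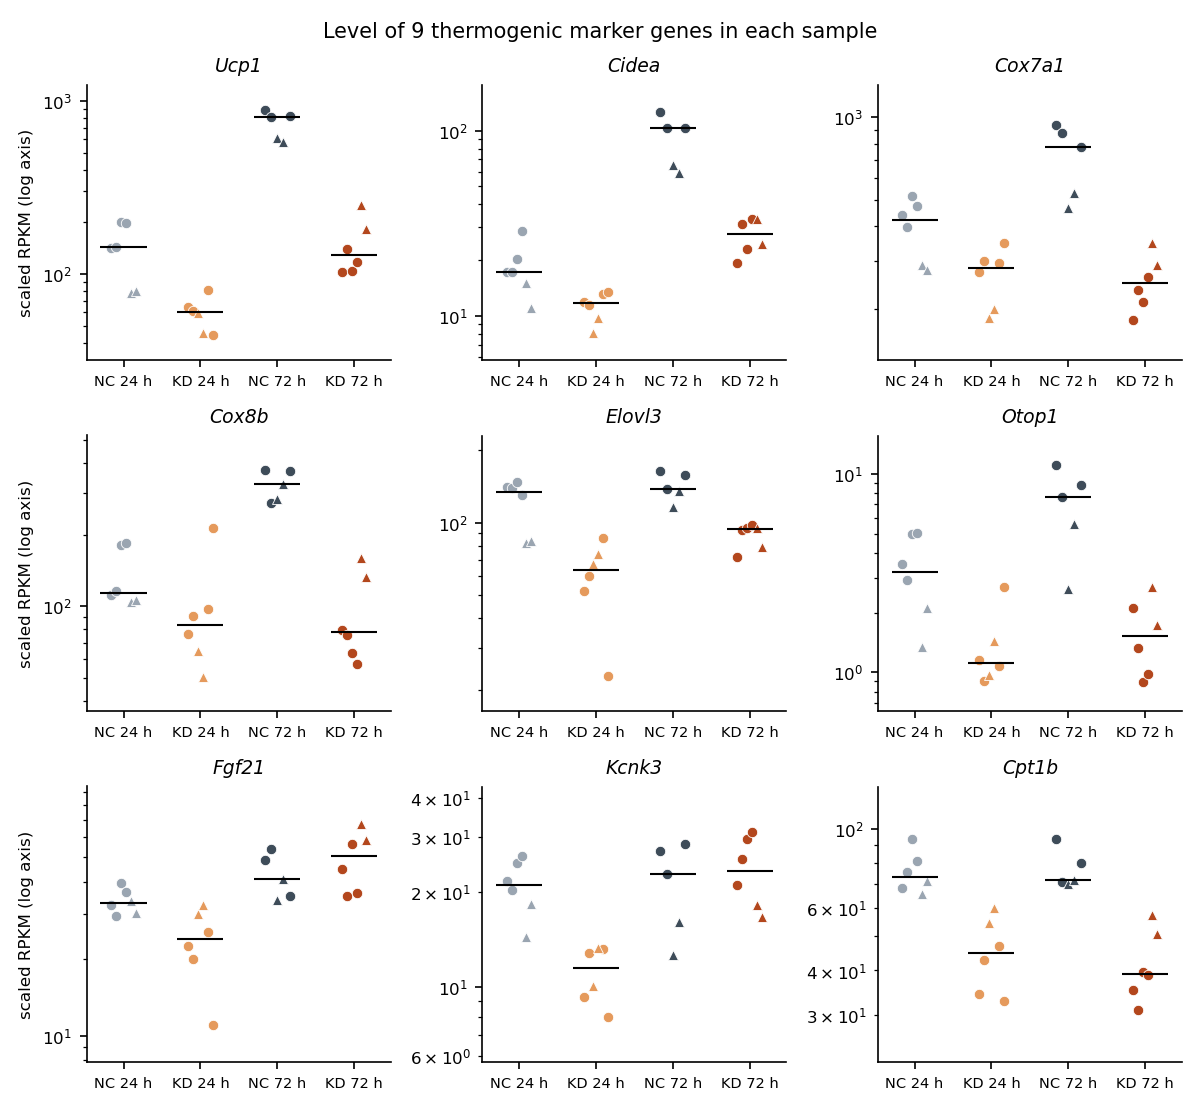
Level of each of the 9 genes in every sample, in scaled RPKM on a log axis, for NC 24 h, KD 24 h, NC 72 h and KD 72 h. Circles are libraries of the larger cluster, triangles those of the smaller one, and bars are medians. For Ucp1 the KD 72 h samples (103 to 249) overlap NC 24 h (77.4 to 199) and lie below every NC 72 h sample.

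Ucp1, which uncouples respiration from ATP synthesis, was read from NM_009463, a transcript of 1644 bases with 112 to 4461.5 reads per sample. Its level in NC 24 h ran from 77.4 to 199 scaled RPKM with a median of 143, and in KD 24 h from 44.3 to 81.0 with a median of 60.3. All but 1 of the KD samples lay below every control sample, and KD reached 45.0% of the control (log2 fold change -1.15 ± 0.24 SE, adjusted p = 0.00486). NC 72 h measured 888 scaled RPKM in replicate 1, 802 in the merged replicates 2 and 3, 607 in replicate 4, 577 in replicate 5 and 820 in replicate 6, whereas KD 72 h ran from 103 to 249 with a median of 128. The groups were far apart at 72 h, with KD at 19.4% of the control (-2.37 ± 0.21, adjusted p = 8.14e-06). Over time Ucp1 rose 5.61-fold in NC (adjusted p = 3.54e-05) and 2.42-fold in KD (adjusted p = 0.00168). Knockdown samples at 72 h thus overlapped the control samples at 24 h.

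Cidea, a lipid droplet protein typical of brown fat, was read from NM_007702 (1164 bases, 24 to 409 reads). It ran from 11.1 to 28.7 scaled RPKM in NC 24 h (median 17.2) and from 8.04 to 13.4 in KD 24 h (median 11.7). These ranges overlapped, and KD reached 64.3% of the control (log2 fold change -0.64 ± 0.21 SE, adjusted p = 0.0394). At 72 h the NC samples measured 127, 104 (merged replicates), 64.9, 58.8 and 103 scaled RPKM in replicate order, and KD ran from 19.3 to 33.3 (median 27.8). No sample overlapped, and the fall was -1.70 ± 0.21 (adjusted p = 8.34e-05), to 30.7% of the control. Cidea rose 5.01-fold in NC between the times (adjusted p = 4.89e-05) and 2.39-fold in KD (adjusted p = 0.00036). The 24 h call was the weaker of the pair. It was lost without any 1 of 9 libraries, namely KD 24 h replicates 1 to 5 and NC 24 h replicates 1 to 4 (log2 fold change -0.68 to -0.50, adjusted p from 0.0505 to 0.0842), and over all 24 alternatives its adjusted p ran from 0.0156 to 0.427.

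The respiratory chain subunits Cox7a1 and Cox8b, the forms of cytochrome c oxidase subunits found in brown fat, heart and muscle, were measured on short transcripts of 366 and 363 bases. Cox7a1 (NM_009944) ran from 278 to 514 scaled RPKM in NC 24 h (median 420) and from 186 to 348 in KD 24 h (median 283). The overlapping ranges differed by -0.57 ± 0.19 on the log2 scale (adjusted p = 0.0415). NC 72 h measured 937, 875 (merged replicates), 465, 527 and 781 scaled RPKM for Cox7a1 in replicate order, and KD 72 h ran from 182 to 349 (median 248). Every KD sample was below every control sample, at 36.2% of the control (-1.47 ± 0.20, adjusted p = 0.000185). Cox7a1 rose 1.79-fold in NC with time (adjusted p = 0.0168) and measured -0.06 ± 0.18 on the log2 scale in KD (adjusted p = 0.862). Like Cidea, it lost its 24 h call without any 1 of the KD 24 h replicates 1 to 5 and NC 24 h replicates 1 to 4 (-0.60 to -0.47, adjusted p from 0.0535 to 0.0912; over 24 alternatives from 0.00629 to 0.551). The rise in NC was lost without NC 72 h replicate 1 (adjusted p = 0.0542) or the merged replicates 2 and 3 (adjusted p = 0.0549), where the range over 23 alternatives was 0.0001 to 0.0549.

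Cox8b (NM_007751, 87 to 535 reads) ran from 104 to 183 scaled RPKM in NC 24 h (median 114) and from 50.5 to 213 in KD 24 h (median 83.6). Its highest KD value came from replicate 6, the shallowest library, and the difference of -0.54 ± 0.28 on the log2 scale did not pass (adjusted p = 0.176). Without that library Cox8b was called, at -0.80 with an adjusted p of 0.00775 (over 24 alternatives 0.00775 to 0.71). At 72 h the NC samples measured 373, 272 (merged replicates), 283, 328 and 371 scaled RPKM in replicate order, and KD ran from 57.3 to 160 (median 77.6). The groups stood apart, with KD at 27.3% of the control (-1.87 ± 0.23, adjusted p = 0.000101). Between the times Cox8b rose 2.50-fold in NC (adjusted p = 0.000179), while the KD samples differed by -0.01 ± 0.32 (adjusted p = 0.991). In both subunits KD 72 h overlapped KD 24 h. The muscle markers, which share these genes with brown fat, summed to 1.32 to 10.1 scaled RPKM in KD 72 h and 6.12 to 23.0 in NC 72 h, and Acta1, the only one with enough reads to test, was lower in KD at 72 h (-1.75, adjusted p = 0.0281); their part in the values of Cox7a1, Cox8b and Cpt1b was not tested.

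Elovl3 and Cpt1b act on fatty acids, Elovl3 as an elongase of the endoplasmic reticulum that is induced by cold in brown fat and Cpt1b as the gate of the mitochondrial carnitine shuttle. Elovl3 (NM_007703, 1879 bases, 66 to 1370 reads) ran from 82.5 to 147 scaled RPKM in NC 24 h (median 135) and from 22.8 to 86.1 in KD 24 h (median 63.6). The ranges overlapped through NC 24 h replicates 5 and 6, and the fall was -1.05 ± 0.27 (adjusted p = 0.0133). NC 72 h measured 165, 138 (merged replicates), 117, 136 and 158 scaled RPKM in replicate order, and KD 72 h ran from 72.0 to 97.4 (median 93.9). Here no sample overlapped, with KD at 62.3% of the control (-0.68 ± 0.11, adjusted p = 0.000835). Scaled to the 8 adipocyte markers, this 72 h difference became -0.14 and was not called (adjusted p = 0.421; over 23 alternatives 0.00029 to 0.421). With time Elovl3 was called in neither treatment, at 0.28 ± 0.16 in NC (adjusted p = 0.339) and 0.65 ± 0.25 in KD (adjusted p = 0.115).

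Cpt1b (NM_009948, 2894 bases, 146 to 1144 reads) ran from 65.5 to 93.4 scaled RPKM in NC 24 h (median 73.2) and from 32.8 to 59.9 in KD 24 h (median 44.9). The ranges did not overlap (log2 fold change -0.76 ± 0.15 SE, adjusted p = 0.00397). At 72 h the NC samples measured 93.7, 70.8 (merged replicates), 69.8, 71.8 and 80.1 scaled RPKM in replicate order, and KD ran from 30.9 to 57.4 (median 39.2). The groups were again apart, at -0.90 ± 0.15 (adjusted p = 0.000877). Between the times the samples differed by 0.04 ± 0.11 in NC (adjusted p = 0.882) and by -0.10 ± 0.18 in KD (adjusted p = 0.771). The interaction term of Cpt1b was the nearest to 0 among the 9 (-0.13 ± 0.22, adjusted p = 0.867). It was also the only one of the 9 for which all KD 72 h samples lay outside the range of NC 24 h.

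Otop1, a proton channel of the otopetrin family that is abundant in brown fat, had the lowest level of the 9 (NM_172709, 3151 bases, 12 to 95 reads, median 29). It ran from 1.34 to 5.02 scaled RPKM in NC 24 h (median 3.21) and from 0.909 to 2.68 in KD 24 h (median 1.12). The fall to 44.8% of the control (log2 fold change -1.16 ± 0.34 SE, adjusted p = 0.0262) had a wide error, and the ranges overlapped. NC 72 h measured 11.1, 7.59 (merged replicates), 2.62, 5.58 and 8.75 scaled RPKM in replicate order, and KD 72 h ran from 0.891 to 2.69 (median 1.53). A single control, replicate 4, fell inside the KD range, and KD reached 24.7% of the control (-2.02 ± 0.36, adjusted p = 0.00143). Neither course over time was called (1.08 ± 0.38 in NC, adjusted p = 0.10, and 0.22 ± 0.32 in KD, adjusted p = 0.716). The 24 h call of Otop1 was lost without any 1 of KD 24 h replicates 1, 2 and 5 and NC 24 h replicates 1, 3 and 4 (-1.13 to -1.01, adjusted p from 0.051 to 0.0628; over 24 alternatives 0.00633 to 0.566). Without NC 72 h replicate 4 its rise in NC was called, at 1.39 with an adjusted p of 0.0219 (over 23 alternatives 0.0131 to 0.228).

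Kcnk3 and Fgf21 were the 2 genes not called in KD against NC at 72 h. Their interaction terms were not called either (adjusted p = 0.134 and 0.287 in limma). Kcnk3 (NM_010608, 3810 bases, 47 to 495 reads) encodes a potassium leak channel of the plasma membrane that is enriched in brown fat. It ran from 14.4 to 26.1 scaled RPKM in NC 24 h (median 21.0) and from 8.02 to 13.2 in KD 24 h (median 11.5). No sample overlapped, and KD reached 53.8% of the control (log2 fold change -0.89 ± 0.18 SE, adjusted p = 0.00346). At 72 h the NC samples measured 27.0, 22.8 (merged replicates), 12.6, 16.1 and 28.6 scaled RPKM in replicate order, and KD ran from 16.7 to 31.1 (median 23.3). These ranges overlapped (0.17 ± 0.23, adjusted p = 0.628). Kcnk3 rose 2.10-fold between the times in KD (adjusted p = 0.00241) and stood at 0.00 ± 0.21 in NC (adjusted p = 0.997). The knockdown samples thus lay below the controls at 24 h and overlapped them at 72 h.

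Fgf21, a hormone that fat and liver release under metabolic stress and cold, was read from NM_020013 (947 bases, 16 to 275 reads). It ran from 29.4 to 39.5 scaled RPKM in NC 24 h (median 33.1) and from 11.0 to 32.4 in KD 24 h (median 23.9). The difference of -0.57 ± 0.21 did not pass (adjusted p = 0.0637). It passed without KD 24 h replicate 3 (-0.66, adjusted p = 0.0409) or replicate 4 (-0.68, adjusted p = 0.0283), where the range over 24 alternatives was 0.0265 to 0.928. NC 72 h measured 48.7, 53.7 (merged replicates), 34.0, 41.1 and 35.2 scaled RPKM in replicate order, and KD 72 h ran from 35.2 to 67.6 (median 50.7). The 72 h groups overlapped (0.21 ± 0.18, adjusted p = 0.447), while KD rose 2.16-fold between the times (adjusted p = 0.00957) and NC measured 0.33 ± 0.13 (adjusted p = 0.136). Scaled to the 8 adipocyte markers, which put the median of all entries at 0.53, KD exceeded NC at 72 h for Fgf21 (0.75, adjusted p = 0.00222; over 23 alternatives 0.00222 to 0.782) and Kcnk3 (0.71, adjusted p = 0.0341; over 23 alternatives 0.0341 to 0.994).

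Within the 2 clusters of libraries the knockdown effect was computed anew. Ucp1 at 72 h fell by 2.85 on the log2 scale in the larger cluster (adjusted p = 1.08e-07) and by 1.48 in the smaller one (adjusted p = 0.000447). At 24 h it fell by 1.45 in the larger cluster (adjusted p = 0.000943) and measured -0.59 in the smaller one (adjusted p = 0.0597). Of the 9 genes, 8 were called lower at 24 h in the larger cluster, all but Cox8b, and 2 in the smaller cluster, Cox7a1 (-0.55, adjusted p = 0.0172) and Cox8b (-0.87, adjusted p = 0.0181). Of all entries, 12.9% were called lower in the larger cluster at 24 h and 1.59% in the smaller one, so the counts are not comparable between the clusters. At 72 h the same 7 genes as in all samples were called in the larger cluster. In the smaller one 5 were called lower and Fgf21 was called higher (0.75, adjusted p = 0.0209), where Cpt1b (-0.39, adjusted p = 0.117) and Otop1 (-0.80, adjusted p = 0.293) did not pass. Among all entries at 72 h, 13.0% were called lower in the larger cluster, and 6.94% lower and 3.53% higher in the smaller one. Fgf21 in the larger cluster measured -0.09 (adjusted p = 0.782).

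Courses over time were also taken within the clusters. In the KD samples of the smaller cluster Cox7a1 rose by 0.72 (adjusted p = 0.00229) and Cox8b by 1.34 (adjusted p = 0.000349), whereas in the larger cluster they measured -0.45 (adjusted p = 0.0534) and -0.68 (adjusted p = 0.143). Kcnk3 rose in the KD samples of the larger cluster (1.31, adjusted p = 0.00286) and measured 0.59 in the smaller one (adjusted p = 0.0906). The interaction term, fitted in the larger cluster alone, called 5 of the 9 genes and 1.44% of all entries. The knockdown effect there was lower at 72 h than at 24 h for Ucp1 (-1.41, adjusted p = 0.00938), Cidea (-1.37, adjusted p = 0.0223), Cox7a1 (-1.37, adjusted p = 0.000956) and Cox8b (-1.89, adjusted p = 0.0235), and higher for Kcnk3 (1.15, adjusted p = 0.0398). None was called in the smaller cluster (3.12% of all entries), where 3 genes and 16.5% of all entries had an unadjusted p under 0.05. Adjusted p-values of these 5 genes over 35 alternatives ran from 0.000956 to 0.819. A difference between the clusters was itself not tested, and the smaller cluster held 2 samples per group.

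**Figure D3:**
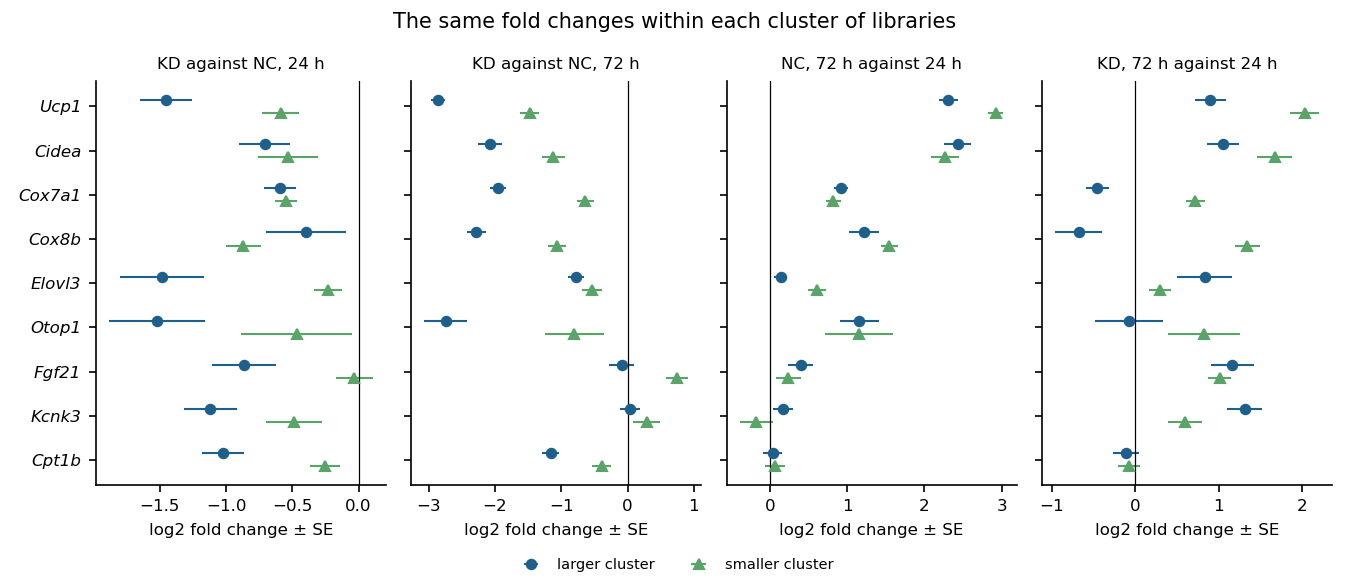
Log2 fold changes of the 9 genes with their SE within the larger (circles) and the smaller (triangles) cluster of libraries, for the 4 comparisons, each panel with its own axis. Ucp1 at 72 h sits at -2.85 in the larger and -1.48 in the smaller cluster, and Cox8b in KD over time at -0.68 and 1.34.

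Because RPKM divides by transcript length, levels of the 9 genes could be ordered within a group, although in libraries read from the 3′ end this division lowers long transcripts such as Kcnk3 and Otop1 against short ones such as Cox8b. Neighbours in the order are called alike here where their mean ± SD overlapped. Cox7a1 led in NC 24 h (400 ± 97.6 scaled RPKM, SD, n = 6), KD 24 h (267 ± 62.1) and KD 72 h (255 ± 59.5). Ucp1 led in NC 72 h (739 ± 138, n = 5), alike with Cox7a1 (717 ± 210). It was the second gene in NC 24 h (140 ± 53.8), alike with Cox8b (134 ± 37.9), which in turn was alike with Elovl3 (120 ± 29.4). In KD 72 h Ucp1 was also the second (149 ± 57.0), alike with both Cox7a1 and Cox8b (94.7 ± 41.5). In KD 24 h it was the fourth (59.3 ± 13.6), alike with Elovl3 (60.3 ± 21.8) above it and Cpt1b (45.2 ± 10.7) below it. Not divided by length, Ucp1 had more reads than Cox7a1 in all 6 samples of NC 24 h, all 6 of KD 72 h, all 5 of NC 72 h and 4 of 6 of KD 24 h, so the lead of the short Cox7a1 transcript holds per length only. Otop1 was the last in every group, from 1.37 ± 0.668 in KD 24 h to 7.13 ± 3.22 in NC 72 h, and alike with no neighbour. Cidea moved up from the eighth place in NC 24 h (18.3 ± 5.97, alike with Kcnk3 at 20.9 ± 4.27) to the fifth in NC 72 h (91.5 ± 28.7, alike with Cpt1b at 77.2 ± 10.1).

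The other entries of the 9 symbols, which share reads with those used and are no independent check, gave like values. The 3 entries of Ucp1 lay between -2.38 and -2.37 at 72 h and the 3 of Elovl3 between -0.85 and -0.68. Of the 2 entries of Cox7a1 1 was called at 24 h (-0.57 to -0.55).

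Relatives of the 9 genes with broader use were examined to see whether the fall was shared by the gene families. Of 18 such paralogues 15 were above 0 in some library (Otop2, Otop3 and Kcnk1 were listed at 0 throughout). Of 11 that could be tested at 24 h, 2 were lower in KD, Cideb (-1.13, adjusted p = 0.0408) and Elovl5 (-0.74, adjusted p = 0.0493), with a median of -0.20. Of 13 tested at 72 h, 3 were lower, namely Elovl5 (-0.86, adjusted p = 0.000548), Cox8a (-0.45, adjusted p = 0.00938) and Cox7a2 (-0.36, adjusted p = 0.00638), and 1 was higher, the potassium channel Kcnk2 (0.98, adjusted p = 0.0465), with a median of -0.10. Over all entries 11.6% were lower and 11.1% higher at 24 h, and 12.1% and 10.4% at 72 h. Ucp2 (0.18 and 0.28 at 24 h and 72 h), Cidec (-0.20 and 0.11), Cpt1a (-0.32 and 0.34), Elovl6 (-0.28 and -0.42), Elovl1 (-0.22 and 0.06), Cox7a2l (-0.06 and -0.10) and Ucp3 (0.82 and -0.55) were called at neither time. Cideb measured -1.64 at 72 h and did not pass (adjusted p = 0.0842). Reads were few for Cideb at 24 h (3 to 18 in KD, 8 to 22 in NC). The same held for Kcnk2 at 72 h (16 to 45 in KD, 6 to 14 in NC). Cpt1c measured 0.10 at 72 h and had too few reads at 24 h, while Kcnk5 and Kcnk6 had too few at both.

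In ratios of 6 genes to a paralogue within each sample, the scaling cancels but for the pseudocount. Of 12 such comparisons 6 passed a two-sided exact permutation test after Benjamini-Hochberg adjustment over the 12. Ucp1 over Ucp2 fell at both times, by 1.33 on the log2 scale at 24 h and by 2.64 at 72 h (adjusted exact permutation p = 0.00866 each). From 5.91 to 6.30 in NC 72 h this log2 ratio was at 2.95 to 4.17 in KD 72 h, within its range in NC 24 h (2.48 to 4.29). At 72 h the ratio also fell for Cidea over Cidec (by 1.81), Cox8b over Cox8a (by 1.42), Cpt1b over Cpt1a (by 1.23) and Cox7a1 over Cox7a2 (by 1.11), each without overlap and each at an unadjusted exact permutation p of 0.00433, the smallest that 6 against 5 samples allow. The same ratios differed at 24 h by -0.43, -0.44, -0.44 and -0.51 and did not pass (adjusted exact permutation p between 0.0519 and 0.286). Some of them passed at 24 h without 1 library, namely Cox7a1 over Cox7a2 without NC 24 h replicate 5 or 6 (adjusted exact permutation p = 0.0371 and 0.0297; over 14 alternatives 0.0297 to 0.104), Cpt1b over Cpt1a without KD 24 h replicate 4 or 5 (0.0371 each; 0.0371 to 0.104) and Cox8b over Cox8a without KD 24 h replicate 6 (0.00866; 0.00866 to 0.379). Elovl3 over Elovl6 did not pass at 24 h (-0.77, adjusted exact permutation p = 0.107) or at 72 h (-0.26, adjusted exact permutation p = 0.459). Such a ratio shows unequal change, not which of the pair changed.

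**Figure D4:**
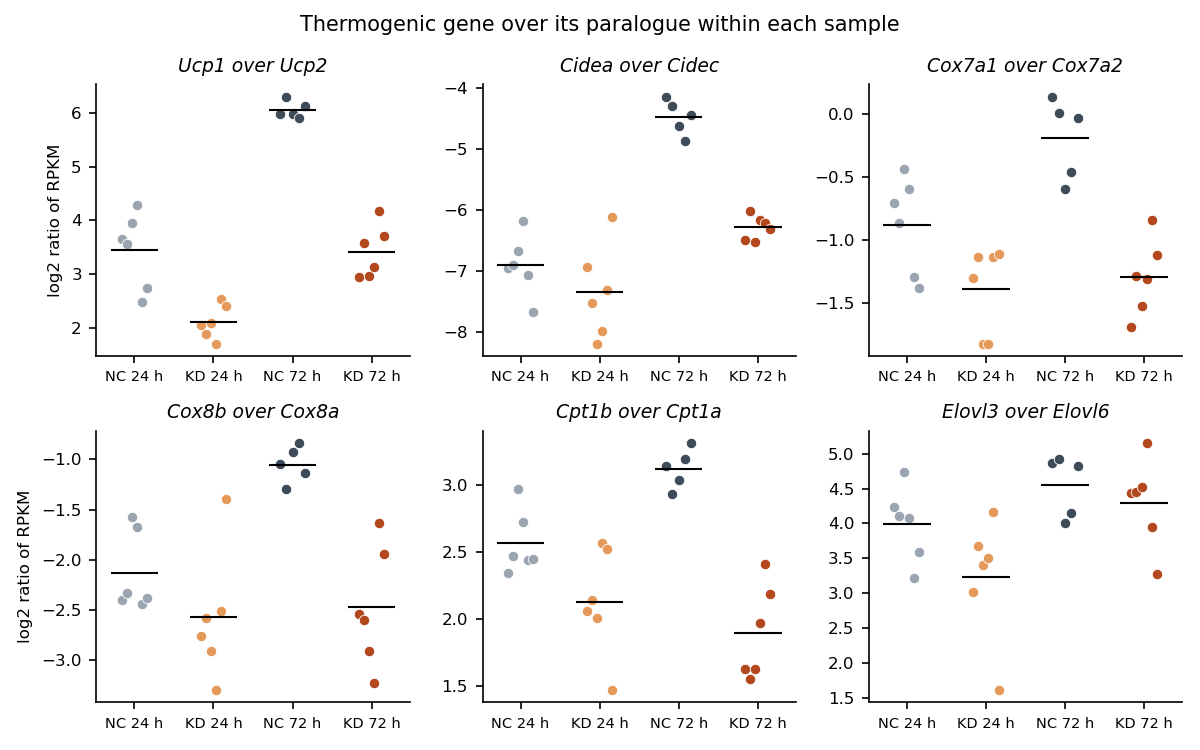
Log2 ratio of 6 thermogenic genes to a broadly expressed paralogue in every sample, by group, with group means as bars. Ucp1 over Ucp2 lies at 5.91 to 6.30 in NC 72 h and at 2.95 to 4.17 in KD 72 h, and Elovl3 over Elovl6 overlaps between KD and NC at both times.

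Other genes of the brown and brite fat programme were taken from a list of 28. The gene Gk was not analysed here. Of the rest, 14 could be tested at 24 h, of which 5 were lower in KD and none higher (median -0.66), and 15 at 72 h, of which 9 were lower and 2 higher (median -0.72). Of all entries, 11.6% were lower and 11.1% higher at 24 h, and 12.1% and 10.4% at 72 h. The transcriptional regulators Prdm16 (-1.68 ± 0.31 SE at 24 h, adjusted p = 0.00234, and -1.36 ± 0.34 at 72 h, adjusted p = 0.0115) and Ebf2 (-0.70 ± 0.23 and -1.08 ± 0.20) were lower at both times. So were Adrb3, the receptor through which noradrenaline switches on heat production (-0.81 ± 0.18 and -1.07 ± 0.21), and the mitochondrial protein Letmd1 (-0.74 ± 0.15 and -1.09 ± 0.11). Ppargc1a, the coactivator of mitochondrial genes, was called lower at 72 h (-1.27 ± 0.23, adjusted p = 0.00153) and not at 24 h (-0.73 ± 0.26, adjusted p = 0.0565). Nrg4, a secreted growth factor of brown fat, was lower at 72 h by 2.01 ± 0.38 (adjusted p = 0.00202). Reads were few for Nrg4 (3 to 19 in KD 72 h, 22 to 43 in NC 72 h). They were also few for Prdm16 (2 to 35 in KD 24 h, 34 to 76 in NC 24 h). For both, the NC samples alone could meet the filter on reads. In the other direction, the fatty acid binding protein Fabp3 (1.34 ± 0.20, adjusted p = 0.000417) and the surface marker Tmem26 (0.93 ± 0.32, adjusted p = 0.0479) were higher in KD at 72 h, a count near the share over all entries. Tmem26 had only 9 to 26 reads in KD 72 h and 4 to 8 in NC 72 h. The other 12 genes of the list had too few reads at either time, among them Dio2, the enzyme that activates thyroid hormone, which reached 0.173 scaled RPKM at most.

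**Figure D5:**
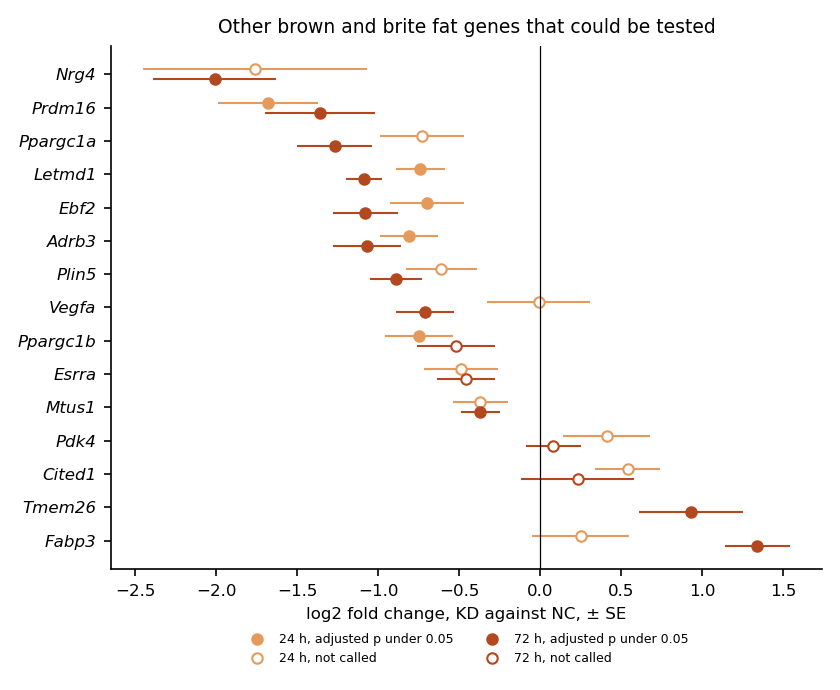
Log2 fold change of KD against NC with its SE for the 15 other brown and brite fat genes that could be tested at 24 h or 72 h, filled where the adjusted p was under 0.05. Nrg4 and Prdm16 lie lowest (-2.01 and -1.36 at 72 h), and Fabp3 (1.34) and Tmem26 (0.93) lie above 0 at 72 h. Reads were few for Nrg4, Prdm16 and Tmem26.

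The genes with the pattern most like Ucp1 were listed over the 23 samples, by Pearson r of log2 level, as a description that includes the group differences and the shared depth of each library. Among 11327 genes, Ucp1 itself counted, Thrsp, a regulator of fatty acid synthesis, came first after Ucp1 (r = 0.95, and 0.80 after the group means were removed). Cidea came second (0.95 and 0.66). The cathepsins Ctsh (0.92 and 0.40) and Ctsa (0.92 and 0.83), the protease Htra1 (0.92 and 0.66) and the integrin Itga11 (0.91 and 0.39) followed. Itga11 was near the floor. It averaged 0.114 scaled RPKM in KD 24 h, about the 0.1 added before the log, and 1.98 in NC 72 h. Thrsp averaged 1493 ± 242 scaled RPKM in NC 72 h (SD, n = 5), 497 ± 117 in KD 72 h, 628 ± 262 in NC 24 h and 246 ± 38.6 in KD 24 h (n = 6 each). Of the other marker genes, Cox7a1 reached r = 0.84, Cox8b 0.82, Otop1 0.80, Elovl3 0.75, Cpt1b 0.60, Fgf21 0.56 and Kcnk3 0.50. The channel Kcnk3 and the hormone Fgf21 were thus the least like Ucp1 among the 9.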

How the data were processed

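RNA of 24 libraries was sequenced as barcoded 3′ tag libraries (BRB-seq). The authors mapped reads with the Genomatix software on NCBI RefSeq and tested genes with DESeq2. The genome build was not given in the sources used here. The deposited table holds RPKM, computed by the authors per transcript entry, with decimal commas, and every sample column was used (0 left out). Since RPKM of whole reads moves in steps, entry lengths and mapped reads were recovered from the steps. Inferred lengths equalled GENCODE within 1% for 93.0% of 23854 Ensembl entries. On simulated data, read numbers came out right for 100.0% of 18623 entries. Overlapping entries share reads, and the use of strand was not given in the sources used here.

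The squared difference between NC 72 h replicates 2 and 3 was 0.341 of that due to counting noise (next lowest of 276 pairs, 1.889). These 2 libraries were averaged. RPKM was scaled by a trimmed mean of log ratios, leaving out 30% of ratios and 5% of levels at each end ("scaled RPKM"). For the filter, RPKM was converted to reads at the median depth. An entry was tested with at least 10 such reads in as many samples as the smallest group compared, and 15 in total. It could thus enter through 1 group alone. Tests were run on log2(scaled RPKM + 0.1) with limma 3.58.1 in R 4.3.3, in separate fits per comparison. Benjamini-Hochberg adjustment ran over all entries tested, at a threshold of 0.05. On this scale changes of low genes are understated. In simulated data for KD against NC at 24 h (52545 entries), limma called 52% of entries changed by 1 on the log2 scale, 100% of those changed by 2 and 0.01% of unchanged entries. Only 100 entries were changed by each amount, all with reads well above the filter. The simulation gave every entry the same spread and held no clusters of libraries. Its rates therefore need not hold for the real libraries. Ratios and Ctcflos were tested by exact permutation (SciPy 1.17.1).

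Values were named by rule: all 9 genes, their paralogues, the 8 other brown and brite fat genes with the largest change among those called in KD against NC, and the 5 genes most like Ucp1. Dio2 was added after its values were seen. The 9 genes and all lists were chosen with earlier results of these data known. Alternatives were a pseudocount of 1, no filter, the deposited scale, scaling by 8 adipocyte markers, 1 entry per symbol, RefSeq entries, voom on recovered reads, a replicate block, every library counted separately, another choice of entry per gene, each cluster, and leaving out each library. In the shallowest library 3 reads were worth 1.08 RPKM for a transcript of 2000 bases, and depth limits cover counting error only.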

Additional observations from a re-analysis of the deposited data

Results flagged for a closer look

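Cox8b in KD 24 h replicate 6 measured 213 scaled RPKM, while the other 5 samples of the group ran from 50.5 to 97.4. Its gap to the nearest sample was 0.711 of the group's range, above Dixon's critical value for 6 samples. Otop1 in the same library measured 2.68 scaled RPKM against 0.909 to 1.44 in the others, a gap of 0.701 of the range. Both values stood far from their group in the shallowest library, and 36 groups were examined in this way, of which chance would mark about 1 in 20.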

How the results depend on the processing

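The 7 calls at 72 h were kept in all 11 fits that left out a library, where 18.4% to 22.7% of all entries were called. The count of genes called at 24 h ran from 4 to 8 when a library was left out (17.1% to 26.7% of all entries). That count was 4 with no filter on low values (7.05% of all entries, against 22.7% in the main fit). It was 2 with scaling by the 8 adipocyte markers (34.9%) and 2 in the smaller cluster (2.97%). On the deposited scale it was 5 (22.6%), where Cidea and Cox7a1 were lost. Of the 12 paralogue ratios 8 passed with a pseudocount of 1, against 6. The interaction term called 1 gene on the deposited scale (1.3% of all entries) and 5 in the larger cluster (1.44%). Over all entries, the deposited scale moved the calls at 72 h from 5617 higher and 6552 lower to 13151 and 3103, those in KD over time from 2671 and 2565 to 5229 and 1243, and scaling by the adipocyte markers moved those at 24 h from 5774 and 6049 to 15777 and 2390; the median of all entries moved to 0.25, 0.16 and 0.36. Replicate numbers did not pair the samples (mean correlation of same-numbered deviations 0.01). With a replicate block 6 of the 9 genes and 16.8% of all entries were called at 24 h. There Cidea (adjusted p = 0.093) and Cox7a1 (adjusted p = 0.103) were lost and Fgf21 (-0.57, adjusted p = 0.0462) was gained.

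The differences that changed sign were not called over all samples, and of them Cox7a1 and Cox8b in KD over time were called in the smaller cluster (0.72 and 1.34). The causes were not tested. For KD against NC at 72 h, Fgf21 measured -0.09 in the larger cluster, and Kcnk3 ran from -0.00 to 0.29 when a library was left out. In NC over time, Kcnk3 measured -0.01 with no filter, with 1 entry per symbol, with RefSeq entries and with voom, -0.02 on the deposited scale, -0.17 in the smaller cluster and -0.04 without the merged replicates 2 and 3, and ran from -0.12 to 0.17 without single libraries, while Cpt1b ran from -0.04 to 0.10. In KD over time, Cox7a1 measured 0.11 on the deposited scale and 0.31 with adipocyte scaling (-0.16 to 0.04 without single libraries). Cox8b measured 0.01 with no filter and with 1 entry per symbol, 0.16 on the deposited scale, 0.37 with adipocyte scaling and 0.10 with voom (-0.17 to 0.26 without single libraries). Otop1 was at -0.07 in the larger cluster, and Cpt1b at 0.07 on the deposited scale and 0.27 with adipocyte scaling. The interaction term of Elovl3 was -0.31 in the smaller cluster, and that of Cpt1b 0.05 on the deposited scale and 0.03 with adipocyte scaling. Low read numbers limit Otop1 most, with 12 reads in its lowest library.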
